A study of Mus musculus with 20 samples.

Results

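The 10 genes described here, which handle lipid in macrophages or accompany such genes, were followed in diaphragms of mice given asbestos or carbon nanotubes. They were Spp1, Gpnmb, Trem2, Lgals3, Apoe, Plin2, Abca1, Abcg1, Ch25h and Cd9, taken by the gene name printed for each probe of the array. Each gene had 1 probe, so the group comprised 10 of the 55681 noncontrol probes and 10 of the 36920 probes that were bright enough to be tested. Levels are log2 signals relative to the 75th percentile of the same array, so that a level of 0 is a signal as bright as that percentile and a difference of 1 is a 2-fold difference. A probe was called when limma's Benjamini-Hochberg adjusted p, taken over all probes tested, was under 0.05 and the change was at least 2-fold.

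The tissue came from 20 female C57Bl/6 mice, injected into the pleural space at 8 weeks of age and killed 12 weeks later, with 4 mice in each of 5 groups. The control mice received the vehicle alone, which was 100 μL of saline with 0.5% bovine serum albumin, and every other group received fibers in the same vehicle. SFA was short amosite asbestos, ground from the same batch as the long amosite asbestos LFA, and both were given at 25 μg per mouse. NTS and NTL were short and long carbon nanotubes, both given at 5 μg per mouse, so that material and dose cannot be told apart between LFA and NTL. The short nanotubes were bought from a company and the long ones were made in a university laboratory. Length and source therefore cannot be told apart between NTS and NTL. RNA was extracted from diaphragm tissue, so each value mixes muscle, pleura and any lesion. In such bulk tissue, more cells of a type and more RNA per cell cannot be told apart.

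Macrophages that engulf lipid-rich debris break it down in lysosomes, keep part of the lipid in droplets and export cholesterol to apolipoprotein acceptors. Trem2 senses lipids and apolipoproteins at the surface of such cells, Abca1 and Abcg1 move cholesterol out of them, Apoe accepts it, and the nuclear receptors LXR raise the transcription of these genes when oxysterols build up. Spp1, Gpnmb, Lgals3 and Cd9 are known as companions of Trem2 in macrophages of fat, atherosclerotic plaques, scarred organs and injured brain.

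The promoters of 4 members are shown as examples of those that hold letters matching factors known from macrophages. They are the last 170 bases before the annotated start and the first 20 bases after it, from RefSeq on GRCm38.p6, read in the direction of the gene. Capitals mark the motifs that were searched on both strands. The motifs were TGANTCA (AP-1), GAGGAAGT (a PU.1 core), CACGTG (the E-box read by the MiT/TFE factors) and GGTNANNNNNGGTCA (a relaxed form of the LXR direct repeat, chosen after the Abca1 promoter had been read). The windows are chr17:48346231-48346420, plus strand, for Trem2, chr6:49036348-49036537, plus strand, for Gpnmb, chr5:104434941-104435130, plus strand, for the first of 2 Spp1 starts, and chr4:53159876-53160065, minus strand, for Abca1.
Trem2: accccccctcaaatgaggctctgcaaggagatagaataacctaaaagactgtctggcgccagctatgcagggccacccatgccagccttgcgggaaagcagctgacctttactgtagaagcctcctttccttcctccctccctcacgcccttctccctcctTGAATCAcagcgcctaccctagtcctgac
Gpnmb: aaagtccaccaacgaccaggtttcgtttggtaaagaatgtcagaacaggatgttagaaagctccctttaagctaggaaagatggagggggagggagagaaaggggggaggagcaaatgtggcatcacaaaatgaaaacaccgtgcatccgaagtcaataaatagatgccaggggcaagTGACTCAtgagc
Spp1: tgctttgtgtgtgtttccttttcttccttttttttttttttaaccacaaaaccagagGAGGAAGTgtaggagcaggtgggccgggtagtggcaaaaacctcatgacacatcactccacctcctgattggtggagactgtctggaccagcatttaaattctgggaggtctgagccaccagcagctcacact
Abca1: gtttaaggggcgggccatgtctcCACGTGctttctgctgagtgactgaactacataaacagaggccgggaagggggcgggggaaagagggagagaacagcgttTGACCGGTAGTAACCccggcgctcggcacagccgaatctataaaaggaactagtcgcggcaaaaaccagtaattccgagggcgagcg
In Trem2 the AP-1 letters began 9 bases before the start, and in Gpnmb they began 8 bases after it. AP-1 letters were held by 7.81% of all 32851 promoter windows of 300 bases. The PU.1 letters of Spp1 began 113 bases before the start, and 3.20% of all windows held them. In Abca1 the E-box lay 147 bases before the start and the relaxed LXR repeat 67 bases before it, on the opposite strand. The E-box was held by 7.15% of all windows and the relaxed repeat by 0.207%. The strict LXR repeat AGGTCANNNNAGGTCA was in no member window and in 0.0152% of all windows. The E-box was also found 4 bases before the start of Plin2, whose promoter is not shown. The M-box TCATGTG, another MiT/TFE motif held by 3.77% of all windows, was in no member window, and TATAAA, held by 13.6%, was left in lower case. Promoter entries matched 9 of the 10 members, and Abcg1 had none. These are matches of letters only, a missing match says only that the letters are not in the window, and no binding was measured here.

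The arrays differed in brightness and in the level of liver markers. The 75th percentile signal ran from 249.6 to 839, between 53.0% and 68.1% of spots were well above background, and the correlation between arrays ran from 0.909 to 0.984. All 10 member probes were well above background on all 20 arrays, and no spot was saturated. The 11 skeletal muscle markers were well above background on all 20 arrays, while 3 lung surfactant genes, Sftpc, Sftpa1 and Sftpb, were too dim to be tested. Liver markers such as albumin were very high on 5 arrays. Their mean, relative to the control mean, was 6.78 on SFA 2, 6.76 on LFA 1, 7.29 on LFA 3, 8.20 on NTS 3 and 8.12 on NTS 4, against at most 4.34 on the other 15 arrays. Results on Apoe and Plin2 are therefore also given without those arrays. That leaves only LFA 2 and LFA 4 in LFA, and only NTS 1 and NTS 2 in NTS.

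Several of the 10 genes rose with long fibers of either material, and none was called with short fibers. In LFA 4 of the 10 members were called, Spp1, Trem2, Lgals3 and Ch25h, all higher than control. Of all probes tested 3.68% were called in this comparison and 2.29% were called higher. In NTL 6 members were called, which were the same 4 with Gpnmb and Abcg1 added, and all were higher. Of all probes 6.40% were called there and 3.66% were called higher. The median change of the 10 members was 1.73 in LFA and 1.66 in NTL, against -0.23 in both comparisons over all probes tested. Every LFA mouse stood above every control mouse for 6 members, as for 5.05% of all probes, and every NTL mouse did so for 8 members, as for 6.61% of all probes. The test of the study's methods called 6 members in LFA and 7 in NTL. Its p asks whether any of the 5 groups differ, and only its 2-fold change is specific to the comparison. Under limma the LFA count was 1 without LFA 2 or LFA 4, 2 without control 1, control 3 or control 4, and 6 without NTS 4. The LFA and NTL comparisons share the same 4 control arrays.

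**Figure D1:**
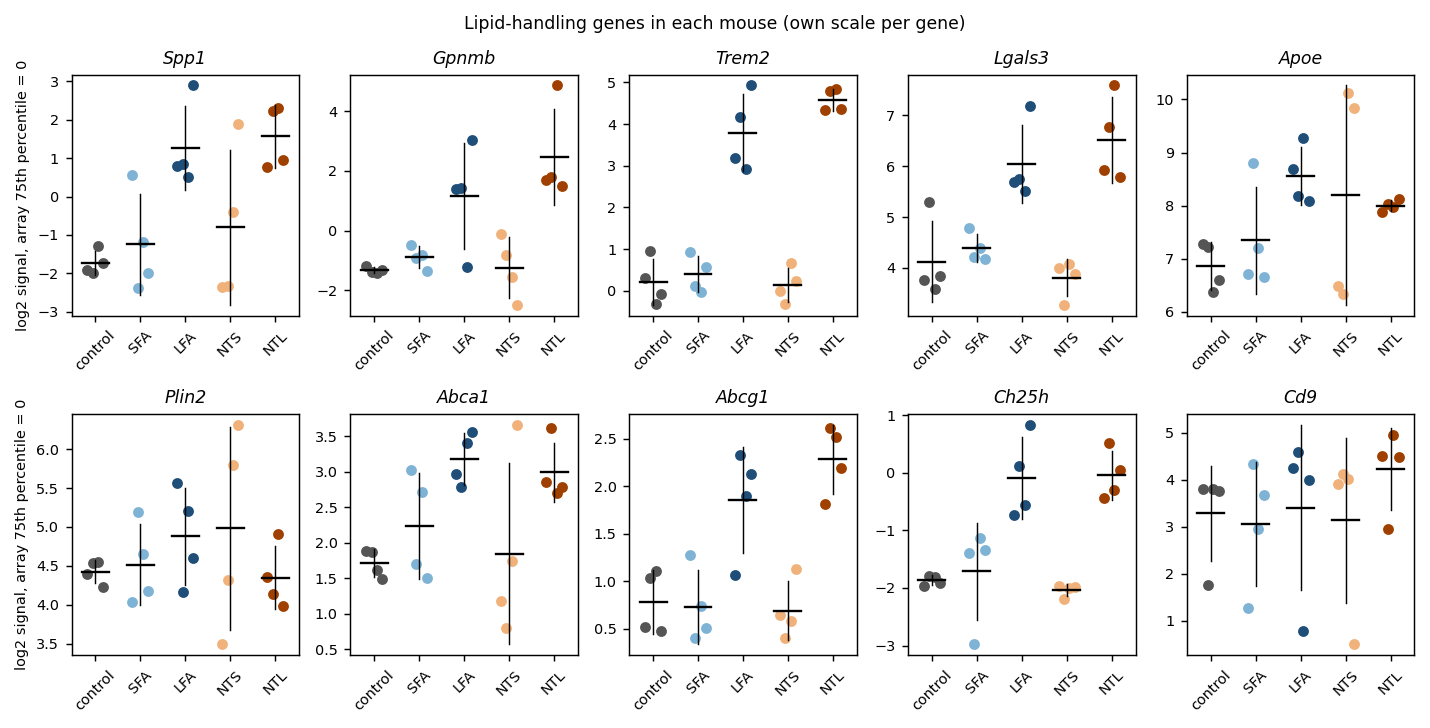
Level of each of the 10 genes in each mouse, as log2 signal with the 75th percentile of the array at 0, by group (points are mice, horizontal bars are group means, vertical bars are 1 SD, n = 4). The LFA and NTL points lie clear above all others for Trem2, Lgals3 and Ch25h, while Plin2 and Cd9 overlap throughout.

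**Figure D2:**
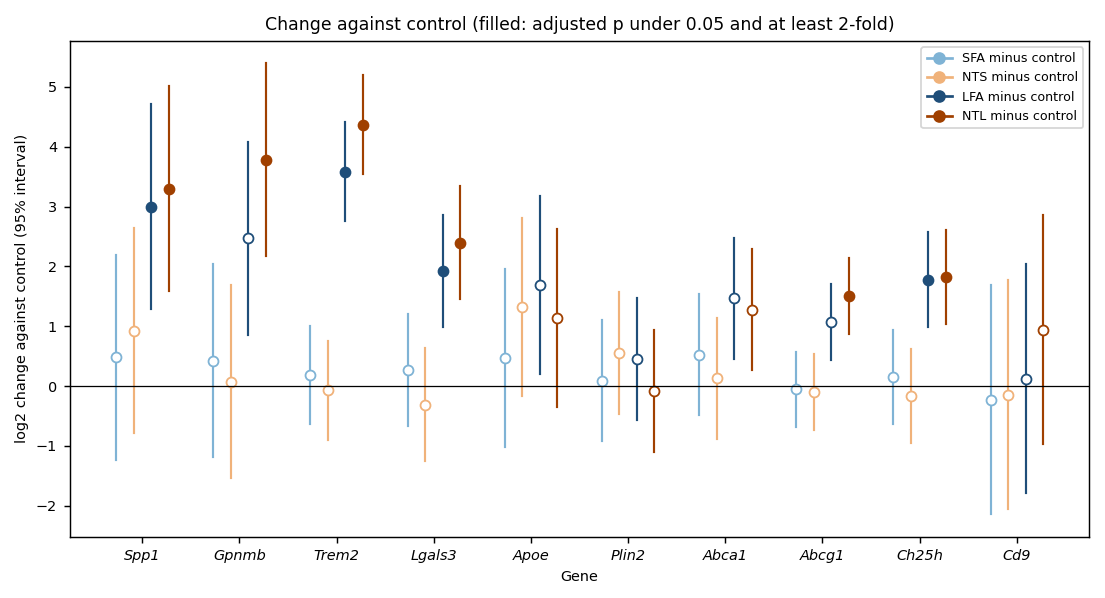
Log2 change of each gene against control in SFA, NTS, LFA and NTL with its 95% interval from limma. Filled points passed an adjusted p of 0.05 and a 2-fold change, and they are 4 genes in LFA and 6 in NTL.

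Trem2, the lipid-sensing receptor, showed the largest change of the members in both long-fiber groups. Its level was 0.30, 0.95, -0.32 and -0.07 in the 4 control mice, 3.19, 4.16, 2.92 and 4.92 in LFA, and 4.33, 4.79, 4.83 and 4.36 in NTL. It was 0.93, 0.12, -0.03 and 0.58 in SFA and -0.00, -0.32, 0.66 and 0.23 in NTS. Every LFA and NTL mouse stood above every mouse of the other 3 groups, with a gap between 0.95 and 2.92. The same was true of Lgals3 and Ch25h among the members and of 1.54% of all probes. The change was 3.58 ± 0.39 (SE, n = 4 mice a group) in LFA, or 12.0-fold, with a limma adjusted p of 9.51e-05. In NTL it was 4.36 ± 0.39, or 20.6-fold, with a limma adjusted p of 7.71e-06. Both calls held whichever of the 20 arrays was left out. The probe lies at chr17:48491537-48491596 on NCBI37, the build of the files, as all probe positions here are.

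Gpnmb, a transmembrane glycoprotein of lysosomes and melanosomes, rose in NTL and was uneven in LFA. Its level was tight in control, at -1.17, -1.38, -1.41 and -1.31. In LFA it was 1.38, 1.43, -1.23 and 3.03, so that LFA 3 lay among the control mice while the other 3 stood far above them. In NTL it was 1.69, 1.81, 4.86 and 1.49, all above control, with NTL 3 far above its group. The NTL change was 3.78 ± 0.77 (SE, n = 4), 13.7-fold, with a limma adjusted p of 0.00606. The LFA change of 2.47 ± 0.77 had a limma adjusted p of 0.0741 and was not called. Without LFA 3 it was 3.27 with a limma adjusted p of 0.0151, and without NTL 3 it was 2.47 with 0.0426. In SFA the level ran from -1.36 to -0.48, and in NTS from -2.49 to -0.12, so that NTS spread to both sides of the control mice. The Gpnmb probe lies at chr6:49006386-49006445.

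Among the secreted members, Spp1, which encodes the matrix protein and cytokine osteopontin, rose in both long-fiber groups. It stood at -1.92, -1.98, -1.29 and -1.72 in control, at 0.80, 0.85, 0.52 and 2.89 in LFA, and at 0.76, 2.24, 2.31 and 0.95 in NTL. All 8 long-fiber mice lay above all control mice. SFA 1 at 0.57 and NTS 4 at 1.89 also lay far above control, while the other 6 short-fiber mice ran from -2.39 to -0.41. The change was 2.99 ± 0.82 (SE, n = 4) in LFA, 7.97-fold, and 3.29 ± 0.82 in NTL, 9.81-fold, with limma adjusted p of 0.0470 and 0.0199. The LFA call rested close to the threshold, since it was lost on leaving out any of 15 of the 20 arrays, with changes from 2.45 without LFA 4 to 3.24 without LFA 3 and limma adjusted p up to 0.138. It held without SFA 1, SFA 2, NTS 1, NTS 2 or NTS 4. The NTL call was lost without NTL 2, where the limma adjusted p was 0.0561, and without NTL 3, where it was 0.0565. The probe lies at chr5:104868502-104868561 and is listed for 4 transcripts.

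Lgals3, the carbohydrate-binding lectin galectin-3, rose with both long fibers. Its level was 3.75, 5.31, 3.59 and 3.83 in control, with control 2 well above the other 3. It was 5.70, 5.76, 5.52 and 7.19 in LFA and 5.93, 6.77, 7.59 and 5.78 in NTL. Every long-fiber mouse exceeded every other mouse, by a gap between 5.31 in control 2 and 5.52 in LFA 3. The change was 1.92 ± 0.45 (SE, n = 4) in LFA, 3.78-fold, and 2.40 ± 0.45 in NTL, 5.26-fold, with limma adjusted p of 0.0242 and 0.00319. The LFA call was lost without LFA 2, LFA 4, control 1, control 3 or control 4, at limma adjusted p from 0.0537 to 0.0799 and changes from 1.54 to 2.01. The Lgals3 probe lies at chr14:48005414-48005473.

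Apoe, the apolipoprotein that carries cholesterol from macrophages and is also made in quantity by the liver, was higher in every long-fiber mouse than in any control mouse but was not called. It stood at 7.27, 7.23, 6.38 and 6.60 in control, at 8.69, 8.18, 9.27 and 8.08 in LFA, and at 7.87, 8.02, 7.97 and 8.13 in NTL. SFA 2 at 8.81, NTS 3 at 10.12 and NTS 4 at 9.84 exceeded the NTL mice, while the other 5 short-fiber mice ran from 6.35 to 7.20. The change was 1.68 ± 0.71 (SE, n = 4) in LFA and 1.13 ± 0.71 in NTL, with limma adjusted p of 0.168 and 0.366. The highest arrays of SFA, LFA and NTS for Apoe were those with the liver markers described above. Leaving out those 5 arrays was a setting chosen after the data had been seen, and it keeps only LFA 2 and LFA 4 in LFA. Without them the LFA change was 1.26 with a limma adjusted p of 0.0297 and the NTL change was 1.13 with 0.0102. With the liver marker mean as a covariate instead, neither was called, at changes of 1.19 and 0.62. The Apoe probe, printed as 10 spots, lies at chr7:20281732-20281791.

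Abca1, the pump that loads lipid-poor apolipoprotein with cholesterol, was higher in all 8 long-fiber mice than in all control mice. Its level was 1.89, 1.87, 1.62 and 1.49 in control, 2.97, 2.78, 3.41 and 3.56 in LFA and 2.86, 3.61, 2.70 and 2.79 in NTL. SFA 1 at 3.03, SFA 3 at 2.72 and NTS 4 at 3.66 reached the long-fiber range, while the other 5 short-fiber mice ran from 0.80 to 1.75. The change was 1.46 ± 0.48 (SE, n = 4) in LFA and 1.27 ± 0.48 in NTL, with limma adjusted p of 0.0891 and 0.118, and neither was called. Without NTS 4 both were called, at limma adjusted p of 0.0177 and 0.0259. The Abca1 probe lies at chr4:53043944-53044003.

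Abcg1, the pump that passes cholesterol on to mature lipoprotein particles, rose in NTL. Its level was 0.52, 1.03, 1.11 and 0.47 in control, 1.06, 2.33, 1.90 and 2.13 in LFA and 1.82, 2.62, 2.52 and 2.19 in NTL. All NTL mice lay above control, and LFA 1 lay below the highest control mouse while the other 3 LFA mice lay above it. The NTL change was 1.50 ± 0.30 (SE, n = 4), 2.83-fold, with a limma adjusted p of 0.00529. The LFA change of 1.07 ± 0.30 had a limma adjusted p of 0.0520, just outside the threshold. Without LFA 1 it was 1.34 with a limma adjusted p of 0.0200, and without NTS 4 the adjusted p was 0.0345. The Abcg1 probe lies at chr17:31252580-31252639.

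Ch25h, the enzyme that turns cholesterol into an oxysterol, rose with both long fibers from a tight control level. It stood at -1.97, -1.79, -1.80 and -1.92 in control, at -0.74, 0.11, -0.55 and 0.83 in LFA, and at -0.44, 0.51, -0.31 and 0.05 in NTL. It was -1.40, -2.98, -1.14 and -1.35 in SFA, with SFA 2 far below the rest. The 8 long-fiber mice exceeded all 12 other mice, the nearest being LFA 1 at -0.74 and SFA 3 at -1.14. The change was 1.78 ± 0.38 (SE, n = 4) in LFA, 3.44-fold, and 1.82 ± 0.38 in NTL, 3.53-fold, with limma adjusted p of 0.0138 and 0.00668. The LFA call was lost without LFA 2, at 0.0514, and without LFA 4, at 0.0530. All 4 NTS mice lay just below the lowest control mouse, from -2.19 to -1.97, a pattern shown by 1 member of 10 and 0.903% of all probes. That NTS difference of -0.17 was not called by limma. The Ch25h probe lies at chr19:34548720-34548779.

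Plin2, a coat protein of lipid droplets, was not called in any comparison. Its level was 4.40, 4.54, 4.54 and 4.22 in control, 5.56, 4.16, 5.21 and 4.60 in LFA and 4.36, 4.14, 4.91 and 3.99 in NTL. The groups overlapped throughout, and the values above 5 were those of LFA 1, LFA 3, SFA 2, NTS 3 and NTS 4, the 5 arrays with high liver markers. The change was 0.46 in LFA, with a 95% interval from -0.56 to 1.47, and -0.08 in NTL, with an interval from -1.09 to 0.94. Without the 5 arrays, and so with only LFA 2 and LFA 4 in LFA, the LFA difference was -0.04. The LFA interval includes a 2-fold rise. The Plin2 probe lies at chr4:86302847-86302906.

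Cd9, a tetraspanin of the cell surface, was not called in any comparison and spread widely within groups. Its level was 3.80, 1.77, 3.81 and 3.76 in control, 4.26, 4.59, 0.79 and 4.00 in LFA and 4.51, 2.96, 4.95 and 4.50 in NTL. In SFA it ran from 1.27 to 4.33 and in NTS from 0.50 to 4.12, with single low mice in each group. The low mice were control 2, SFA 1, LFA 3, NTS 4 and, less so, NTL 2. Of these, control 2, LFA 3, NTS 4 and NTL 2 were the 4 arrays with the smallest share of spots well above background, from 53.0% to 56.8%. SFA 1 was not among them. With that share as a covariate, a setting chosen after the data had been seen, Cd9 was not called in any comparison either. The change was 0.12 in LFA and 0.94 in NTL, with 95% intervals from -1.79 to 2.04 and from -0.97 to 2.85. The Cd9 probe lies at chr6:125410387-125410446.

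The short fibers were compared with control in the same way. By limma 0 members were called in SFA and 0 in NTS, and 0 members reached an unadjusted p under 0.05 in either. The test of the study's methods called 0, but it takes only probes changed at least 2-fold. Among the members only Apoe in NTS was, so no other member could have been called by it. Over all probes 0 were called in either comparison. An unadjusted p under 0.05 was held by 843 probes in SFA, or 2.28%, and by 1259 in NTS, or 3.41%. Member changes ran from -0.23 for Cd9 to 0.52 for Abca1 in SFA, and from -0.31 for Lgals3 to 1.33 for Apoe in NTS. Their median was 0.23 in SFA and 0.00 in NTS, against -0.09 and -0.06 over all probes.

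Long fibers were also set against short fibers of 1 material at 1 dose. The short and long nanotubes came from different makers, so for them length cannot be told apart from source. For asbestos, 2 of 10 members were called, Trem2 at 3.40 ± 0.39 and Ch25h at 1.63 ± 0.38 (SE, n = 4), with limma adjusted p of 0.000287 and 0.0384, against 1.25% of all probes. Lgals3 was higher in every LFA mouse than in every SFA mouse, as 3.40% of all probes were, at 1.65 with a limma adjusted p of 0.0956. For nanotubes 5 members were called, against 7.40% of all probes. These were Gpnmb at 3.71, Trem2 at 4.43, Lgals3 at 2.71, Abcg1 at 1.60 and Ch25h at 1.99, with limma adjusted p from 3.40e-06 to 0.00535. NTS and NTL arrays share only 1 of the 3 slides, and with slide as a term Gpnmb was at 3.33 with a limma adjusted p of 0.0803, while the other 4 remained called. Each of the 5 was higher in all NTL mice than in all NTS mice, as 7.79% of all probes were. Spp1 was not called for either material, at 2.51 with a limma adjusted p of 0.201 and at 2.37 with 0.0794. Without NTS 4 the nanotube difference of Spp1 was 3.27 and that of Abca1 was 1.75, both called at limma adjusted p of 0.00648 and 0.00573. The asbestos call of Trem2 held without any single array. That of Ch25h was lost on leaving out any of 11 arrays, with changes down to 1.21 and limma adjusted p up to 0.169, while Gpnmb was called at 2.84 without LFA 3, Abcg1 at 1.39 without LFA 1 and Lgals3 at 1.65 without control 2.

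LFA and NTL were also set against each other, at their different doses. By limma 0 members were called and 0 had an unadjusted p under 0.05. Over all probes 0 were called and 583, or 1.58%, had an unadjusted p under 0.05. The largest member differences were 1.31 for Gpnmb, with a 95% interval from -0.31 to 2.92, and 0.82 for Cd9, from -1.09 to 2.73, both higher in NTL. Trem2 differed by 0.78, with an interval from -0.05 to 1.61. Ch25h differed by 0.04, with an interval from -0.75 to 0.83. The length effect of nanotubes minus that of asbestos was also not called for any member. An unadjusted p under 0.05 was held by 0 members and by 1259 of all probes, or 3.41%. For the members named here the difference is given with its 95% interval. This difference in length effect was 1.04 for Trem2, from -0.13 to 2.21, and 1.66 for Gpnmb, from -0.63 to 3.94. Apart from that of Ch25h, each of these intervals includes a difference of more than 2-fold.

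Macrophage markers rose in the same mice, so the members were also set against them. Of 12 macrophage markers tested, 7 were called higher in LFA and 9 in NTL, and 0 lower. Their mean level relative to control was 1.39 ± 0.48 (SD, n = 4) in LFA and 1.77 ± 0.04 in NTL, 0.02 ± 0.19 in SFA and 0.00 ± 0.17 in NTS. Among the defining markers, Mrc1 was higher by 1.97 in LFA and 2.28 in NTL and Csf1r by 1.39 and 1.71, while Cd163 at -1.05 and 0.05 and Itgam at -0.75 and -0.57 were not called. Some markers of other cells were also higher in these mice. Of 6 fibroblast markers, 1 was called higher in LFA and 4 in NTL, and their mean per array ran between 0.33 and 1.35 for LFA, 0.78 and 1.63 for NTL, and -0.11 and 0.17 for control. Single markers of B and plasma cells (Igj, at 3.07 in LFA and 3.36 in NTL) and of granulocytes (Cxcr2, at 2.61 in LFA) were called, and 0 of 7 T cell markers were called by limma, with 1 in each group at an unadjusted p under 0.05. Of 8 granulocyte markers, 6 had a higher mean than control in LFA and 4 in NTL. Of 8 mesothelial markers 7 did so in LFA and 2 in NTL. Of 5 endothelial markers 0 did so in LFA and 1 in NTL. By limma 0 mesothelial and 0 endothelial markers were called in either group. The part of these other cells in the members' changes was not tested.

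After the marker mean of the same array had been subtracted, Trem2 still stood above control in every long-fiber mouse, by 2.20 ± 0.59 (SD, n = 4) in LFA and 2.60 ± 0.28 in NTL. Spp1 did as well, by 1.61 ± 0.98 and 1.53 ± 0.83. Among short-fiber mice, NTS 4 at 3.76, SFA 1 at 2.20, NTS 3 at 1.08 and SFA 3 at 0.51 also exceeded every control mouse for Spp1. The other short-fiber mice ran from -0.62 to -0.40. Trem2 overlapped with control in SFA and NTS. Gpnmb stood above control in every NTL mouse, by 2.01 ± 1.58, and overlapped with control in LFA, SFA and NTS. Lgals3, Abca1, Abcg1, Ch25h and Cd9 overlapped with control in both long-fiber groups. Ch25h, for example, was at 0.39 ± 0.49 in LFA and 0.06 ± 0.44 in NTL. Apoe and Plin2 lay below control in every NTL mouse, at -0.63 ± 0.10 and -1.84 ± 0.39. By arithmetic, any gene that changed by less than the marker mean, which rose by 1.77 in NTL, has a lower mean after subtraction. Before it, Apoe had changed by 1.13 and Plin2 by -0.08. How many of all probes would fall in this way, or stay above control as Trem2 and Spp1 did, was not counted. The subtraction is a description, with no test, and it depends on which markers were listed.

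**Figure D3:**
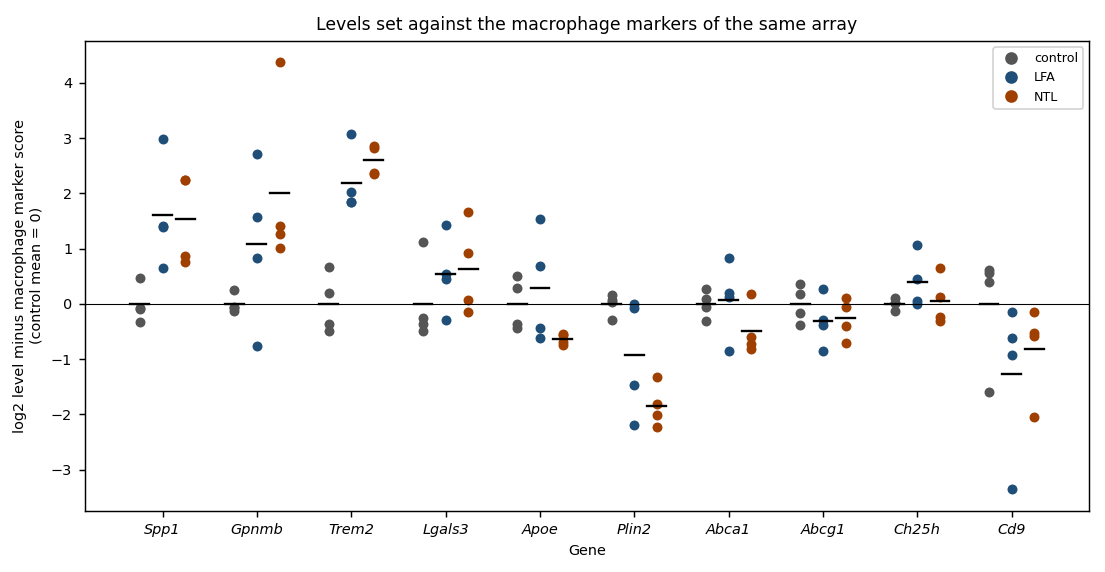
Log2 level of each gene minus the macrophage marker mean of the same array, with the control mean at 0, in control, LFA and NTL (points are mice, bars are means, n = 4). Trem2 and Spp1 stay above control in both long-fiber groups. The short-fiber mice are not drawn. Plin2, whose own level changed by -0.08 in NTL, lies below control there once the higher marker mean is subtracted.

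Within groups the members did not move as 1 block. The deviations of the mice from their group means were correlated over the 20 arrays at a median r of 0.25 for the 45 pairs of members, from -0.77 to 0.85, where all points share arrays and brightness. Apoe and Plin2 deviated together at r = 0.85, Spp1 and Abca1 at 0.84, and Trem2 and Lgals3 at 0.77. Abca1 and Cd9 deviated in opposite ways at r = -0.77. The pair of Spp1 and Abca1 was high in the same short-fiber mice, NTS 4 at 1.89 and 3.66 and SFA 1 at 0.57 and 3.03.

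**Figure D4:**
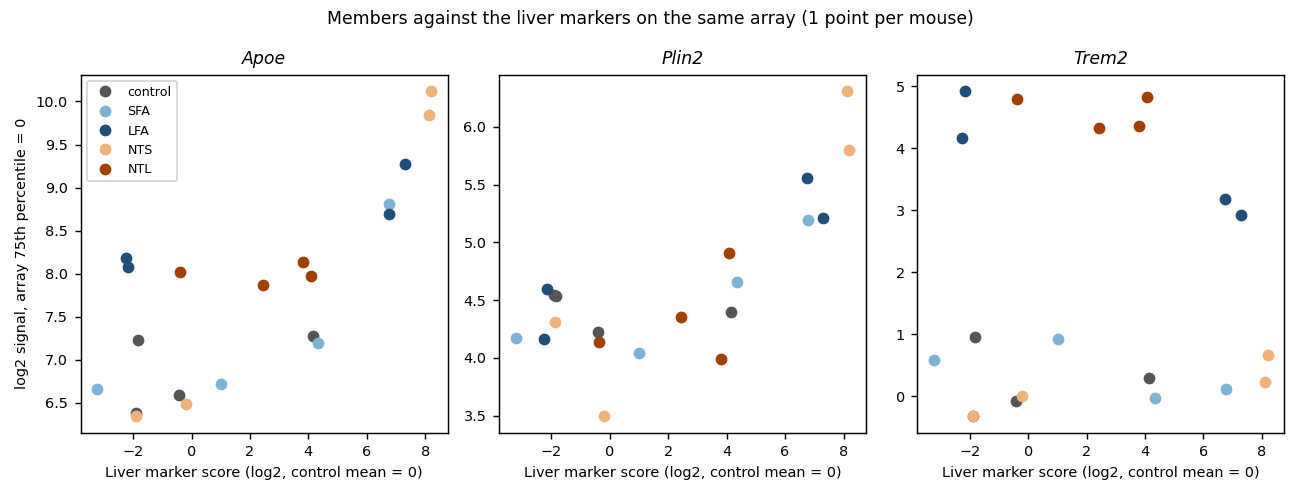
Level of Apoe, Plin2 and Trem2 (log2 signal, 75th percentile of the array at 0) against the mean of 8 liver markers on the same array (log2, control mean at 0), with 1 point per mouse colored by group. Apoe and Plin2 are highest on the 5 arrays with liver values above 6. Trem2 is higher in the LFA and NTL mice than in all others at any liver value.

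Apoe and Plin2 were highest on the arrays with the highest liver markers. Of 8 liver markers 0 were called by limma in LFA or NTL and 0 had an unadjusted p under 0.05, although all 8 had a higher mean in both. Their mean per array ran from -1.90 to 4.15 in control, from -3.22 to 6.78 in SFA, from -2.25 to 7.29 in LFA, from -1.88 to 8.20 in NTS and from -0.38 to 4.08 in NTL. Apoe was 6.48 and 6.35 in the NTS mice with low liver markers and 10.12 and 9.84 in those with high ones. Leaving out the 5 arrays, which keeps only NTS 1 and NTS 2 in NTS, turned the NTL minus NTS difference of Apoe. It went from -0.20 to 1.59, with a limma adjusted p of 0.00502. Without them Spp1, Gpnmb, Trem2, Lgals3, Abcg1 and Ch25h rose in both LFA and NTL. For each of these genes LFA 2 and LFA 4, which were kept, stood above LFA 1 and LFA 3, which were left out. The macrophage marker mean was 1.92 in LFA 2 and 1.64 in LFA 4, against 1.13 in LFA 1 and 0.85 in LFA 3. The LFA rise in this setting therefore rests on the stronger responders.

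The wider pathways of the members were counted next, in lists chosen with earlier results of these data known. Of 22 genes that work with Trem2 or accompany it in lipid-associated macrophages, 6 were called higher in LFA and 11 in NTL, and 0 lower. Their median change was 1.15 and 1.32, against -0.23 over all probes in both comparisons. The 3 with the largest change common to both groups were Atp6v0d2, a subunit of the lysosomal proton pump, at 4.19 and 4.63, Mmp12, the macrophage elastase, at 3.53 and 5.05, and Clec7a, the beta-glucan receptor Dectin-1, at 3.15 and 3.60. The Mmp12 change in LFA had a limma adjusted p of 0.0906 and was not called. Mmp12 averaged -5.82 in control and -5.88 in NTS, and on no array was a probe below -5.55 well above background. The sizes of its changes therefore rest on background signal. No single array left out moved these counts by more than 1.5 times. Of the 22 genes, 2, Cd68 and Lyz2, are also in the macrophage list.

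Of 28 genes of cholesterol uptake, hydrolysis and efflux, 2 were called higher in both comparisons, 0 were called lower in LFA and 1 in NTL. Both that rose were scavenger receptors for modified lipoprotein, Olr1 at 4.84 in LFA and 5.25 in NTL and Msr1 at 3.19 and 3.04. The limma adjusted p of Olr1 was 9.25e-06 and 3.27e-06. Olr1 averaged -6.47 in control and -6.79 in NTS, below -5.55, the lowest level of a probe well above background on any array. The size and limma adjusted p of its change therefore rest on background signal in those groups. Apoc2, an apolipoprotein also made by the liver, stood at 4.13 and 2.59 without being called. The gene called lower was Pparg, a nuclear receptor of fat cells and macrophages, at -1.16 in NTL, a call lost without NTL 1 or NTL 4. The median of the list was 0.13 in LFA and 0.17 in NTL.

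Of 23 genes of sterol synthesis 0 were called by limma in LFA or NTL, and 1 and 2 had an unadjusted p under 0.05. Their median was 0.81 in LFA, 0.12 in NTL, 0.60 in SFA and 1.06 in NTS, where all 23 had a higher mean than control. Their mean per array was 1.42 on SFA 2, 1.42 on LFA 1, 1.15 on LFA 3, 2.21 on NTS 3 and 2.63 on NTS 4, the 5 arrays high in liver markers, and from -0.45 to 0.41 on the other 15. The part of the liver markers in these values was not tested. Sqle, the squalene epoxidase, stood at 1.71 and 1.05, Sc4mol, a sterol demethylating enzyme, at 1.28 and 0.57, and Fdft1, the squalene synthase, at -0.70 and -0.97. Of 20 genes of lipid droplets and triglyceride storage, 0 were called higher, 2 were called lower in LFA and 6 in NTL, with medians of -0.73 and -1.06. Dgat2, which makes triglyceride, fell by 1.12 and 1.43 on the log2 scale, and Pnpla2, the lipase that breaks it down, fell by 1.12 and 1.19. Cidec, which enlarges droplets in fat cells, fell by 1.50 in NTL and stood at -0.98 in LFA. Its relative Cidea stood at -1.15 and -1.78 without being called. Fat-cell and muscle markers were lower in the same mice: all 7 adipocyte markers and all 11 muscle markers had negative changes in both comparisons, with medians of -0.93 and -1.25 for fat and -0.90 and -1.13 for muscle, and of the 20 droplet genes 3 are among the adipocyte markers. Their part in the droplet result was not tested. Under quantile normalization, which moved the median of all probes to -0.08 in LFA and -0.09 in NTL, the droplet genes called lower numbered 0 and 2. Among single arrays, the LFA count was 0 without LFA 2, LFA 4 or control 2, 1 without LFA 1, control 1, control 3 or control 4, and 5 without LFA 3, and the NTL count was 3 without NTL 1, NTL 4 or control 2.

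Among receptors for osteopontin and apolipoprotein E, 2 of 14 were called higher in each long-fiber group and 0 lower, which were Cd44 and, named after its values had been seen, the integrin Itga4 at 1.15 and 1.39. The LFA count was 1 without LFA 2, LFA 3 or LFA 4, among other arrays. Cd44, which binds osteopontin, rose by 1.78 and 1.83, with limma adjusted p of 0.00570 and 0.00217, while Lrp8 at 1.83 and 1.62 was not called. Lrp8 was dim, with means of -6.85 in control, -5.03 in LFA and -5.23 in NTL. Of the 4 MiT/TFE factors, which control lysosomal genes, Tfec was called at 3.02 and 3.26, Tfeb stood at -1.05 and -1.09 with limma adjusted p of 0.0576 and 0.0352, and Tfe3 stood at 0.60 and 0.59. Tfec was dim in control, at a mean of -5.37. Under normexp background correction 0 of the 4 factors were called higher and 1 was called lower in each group, and 0 were called higher where probes had to be well above background on all 20 arrays. The Tfec call in LFA was lost without LFA 1, LFA 2, LFA 4, control 1 or control 2, and the Tfeb call in NTL was lost without any 1 of the NTL mice or without control 2, control 3 or control 4. Of 14 tetraspanins related to Cd9, 1 was called in each group, Tspan32 at 1.25 and 1.37, while Cd53 at 0.94 and 2.31 and Tspan7 at -0.81 and -0.85 were not. The tetraspanin call was lost in LFA without LFA 2, LFA 3 or LFA 4, among other arrays, and in NTL without NTL 2, NTL 4, control 1 or control 4. Of 9 further galectins and galectin-related genes and 9 genes of the oxysterol pathway, 0 were called by limma in either group, while 2 and 3 galectin genes and 2 and 2 oxysterol genes had an unadjusted p under 0.05. Lgals3bp stood at 0.88 and 0.90, Lgals6 at -0.70 and -1.14, Lgals12, a galectin of fat cells, at -1.15 and -1.02, Cyp7b1, which clears oxysterols, at 2.43 and 2.03, Gpr183, a receptor for an oxysterol, at 0.80 and 0.99, and Osbpl8, an oxysterol-binding protein, at 0.49 and 0.49.

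**Figure D5:**
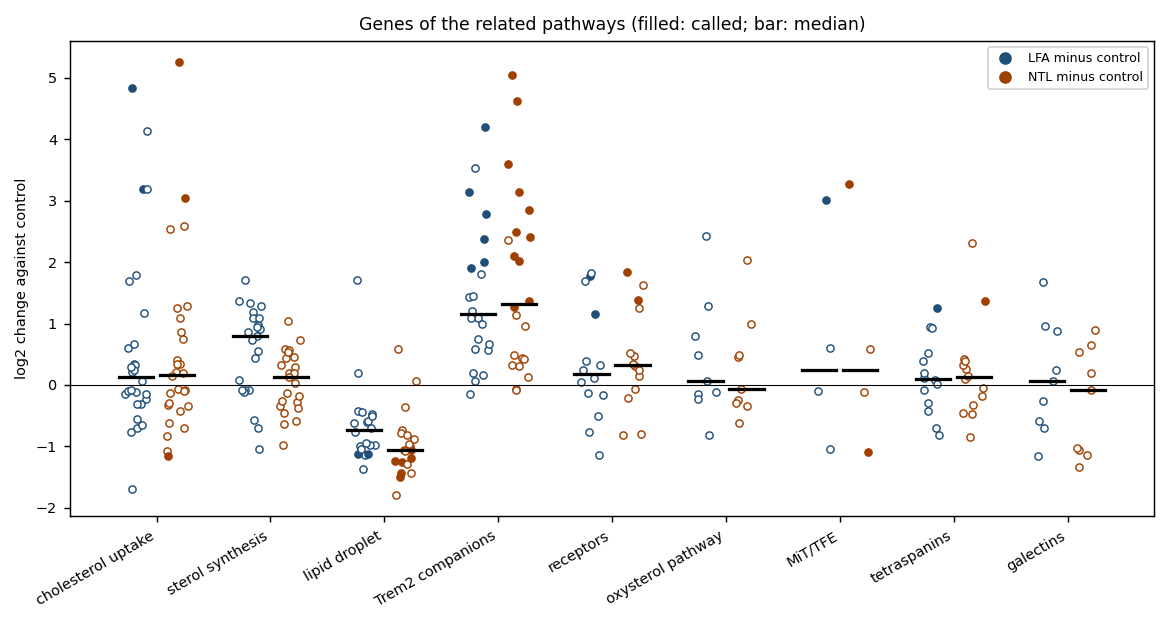
Log2 change against control of each tested gene in 9 lists related to the members, in LFA and NTL. Filled points were called and bars are list medians, which are highest for the Trem2 companions (1.15 and 1.32) and lowest for the lipid droplet genes (-0.73 and -1.06).

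The genes most like the members in pattern were sought among 18791 other named genes, by Pearson r over the 20 arrays with the mean of the members' standardized levels. They were Clec4n (r = 0.961), Atp6v0d2 (0.960), Clec7a (0.956), Gm14461 (0.955) and B430306N03Rik (0.954). Clec4n, the fungal receptor Dectin-2, rose by 4.51 in LFA and 4.72 in NTL. The points share the 5 groups and the same arrays, and no p is given.

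The arrays lay on 3 slides, each with at least 1 control array. On the same slide, Spp1, Gpnmb, Trem2, Lgals3, Apoe, Abca1, Abcg1 and Ch25h were higher in LFA than in control on 3 of 3 slides and higher in NTL than in control on 2 of 2. Trem2, for example, differed by 2.56 to 4.48 in LFA and by 3.71 to 4.98 in NTL. With slide as a term in the fit, Trem2 and Ch25h remained called in LFA, while Spp1, at 2.60 with a limma adjusted p of 0.0813, and Lgals3, at 1.86 with 0.0512, did not.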

How the data were processed

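RNA from 20 mouse diaphragms was labeled with a single dye and hybridized to Agilent mouse arrays. The authors deposited the scanner software's output (Agilent Feature Extraction 10.7.3.1, positions on NCBI37), in which the signal of a spot is a background-subtracted intensity. A second deposited file of the authors held log2 group means made in GeneSpring, centered per probe by a step not given in the sources used here, which was used as an alternative for differences only. Its columns are the authors' means and carry no replicate spread.

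From the intensities, outlier spots marked by the scanner were left out, spots of a probe were averaged on the log2 scale, and the array's 75th percentile over noncontrol probes was subtracted. The 36920 probes that the scanner marked well above background in 4 or more of the 20 arrays were tested. In R 4.3.3 with limma 3.58.1 a mean for each of 5 groups was fitted to all arrays, and 8 contrasts were tested with Benjamini-Hochberg adjustment over all probes tested. Probes were called at an adjusted p under 0.05 and a log2 change of at least 1. Each group held 4 separate mice, so p-values measure the spread between mice. The fit was tested on simulated data, drawn with independent noise and the same spread in every group. That test does not cover effects that arrays share, such as brightness. Figures were drawn with matplotlib 3.10.9. The number of arrays limits the precision.

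The members, lists and tests were chosen with earlier results of these data known. A gene with several probes is represented by its brightest tested probe. The genes named are the 10 members, the 3 genes of each pathway list with the largest smaller change in LFA and NTL in a common direction, the gene of each list that fell most in NTL if called, and the 5 genes most correlated with the members. A gene that this rule names in the receptor list is not reported here. Cd68, Mrc1, Csf1r, Cd163, Itgam, Lyz2 and the lung genes are named as markers. Replicate numbers did not pair the mice. The alternatives were quantile normalization, normexp background correction, other filters on dim probes, averaging of probes, slide or replicate number in the fit, fits of the compared groups only, leaving out each array, no minimum change, and the test of the study's methods, which allows unequal variances. A further 3, on liver markers and array quality, were added after the data had been seen. The test of the study's methods gives a single p per probe over all 5 groups. That p is adjusted over the probes changed at least 2-fold in the comparison. An exon annotation of the probes was not used here.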

Additional observations from a re-analysis of the deposited data

Results flagged for a closer look

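In each group of 4 mice the highest and lowest value of each member was set against the rest by the gap to its nearest neighbor, as a part of the group's whole range, with 0.829 as the limit. Of 50 member groups and 10 further groups of marker means, 60 in all, 10 passed it, and chance passes about 1 in 20. High values stood apart in LFA 4 for Spp1, at 2.89, and for Lgals3, at 7.19. Gpnmb did so in NTL 3, at 4.86, Lgals3 in control 2, at 5.31, and Abca1 in NTL 2, at 3.61. Low values stood apart for Ch25h in SFA 2, at -2.98, and in NTS 2, at -2.19. Cd9 was low in control 2, at 1.77, in LFA 3, at 0.79, and in NTS 4, at 0.50. These 3 arrays had the smallest shares of spots well above background, and with that share as a covariate the Cd9 change was 0.08 in LFA and 0.60 in NTL, against 0.12 and 0.94 without it. No member passed the test of a different length effect in asbestos and nanotubes.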

How the results depend on the processing

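Members called in LFA against SFA numbered 2, and 1 with no filter on dim probes, with only the groups compared in the fit, with the replicate block and with slide as a block, and from 1 to 3 on leaving out single arrays. In LFA against control 4 became 2 with slide as a block, 7 without the 5 arrays high in liver markers, an alternative chosen after the data had been seen, and from 1 (without LFA 2 or LFA 4) to 6 (without NTS 4) on leaving out single arrays. In NTL against NTS 5 became 8 without those 5 arrays and 4 with slide as a block, where Gpnmb was lost, and ran from 5 to 7 without single arrays. In NTL against control 6 became 8 without those 5 arrays and with only the groups compared, and ran from 5 to 7 without single arrays. Without the 5 arrays Apoe in NTL against NTS turned from -0.20 to 1.59. That setting keeps only LFA 2 and LFA 4 in LFA, and only NTS 1 and NTS 2 in NTS. For Spp1, Gpnmb, Trem2, Lgals3, Abcg1 and Ch25h, LFA 2 and LFA 4 stood above LFA 1 and LFA 3. The counts for SFA and NTS against control, NTL against LFA and the difference in length effect were 0 under every alternative run. Replicate numbers did not pair the mice, since deviations of same-numbered mice correlated from -0.676 to 0.689 and 4 of 20 arrays were nearest to their own number. With the replicate block Spp1 in LFA had a limma adjusted p of 0.0597 at 2.99, and Ch25h in LFA against SFA 0.0663 at 1.63. Quantile normalization moved the median change of all probes from -0.23 to -0.08 in LFA and to -0.09 in NTL, and the share of calls that were higher from 62.2% to 75.9% and from 57.3% to 72.3%. Under it, under normexp and with slide as a block the Plin2 difference in NTL changed sign from -0.08 to 0.23, 0.01 and 0.14, none of them called. With slide as a block the receptor list held 1 call in each long-fiber group and the tetraspanins 0. The authors' group means allow no test, and no member had a second probe to try. Signals are relative to the rest of the array, and 4 mice a group leave intervals of about 1 or more log2 units on each side for most members.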
